A study of Ovis aries with 13 samples.

Results

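VEGFA, FLT1 and PECAM1, a growth factor of blood vessels, one of its receptors and an adhesion protein of the vessel lining, were followed in the left ventricle of sheep hearts around birth. Every non-control probe of the array whose gene name or gene by accession is one of these 3 genes was taken. The 3 genes, of 855 with a named probe, have 6 of 15008 probes, of which 2 belong to VEGFA, 3 to FLT1 and 1 to PECAM1. Of the 6, 5 carry the gene symbol itself, and 1 FLT1 probe is spelled FLT-1 and described in the files as VEGF receptor-1. The newborn group held 7 lambs labelled postnatal day 1, which the protocol calls the day of birth (4 females and 3 males), and the fetal group held 6 fetuses at gestational day 142 (2 females and 4 males). Each animal gave 1 piece of left ventricle and 1 Agilent 1-colour array. Neither group was labelled with a genotype, a drug or any other treatment, and the series' title concerns the heart at birth.

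Vascular endothelial growth factor A (VEGFA) is secreted by muscle and other cells, more so when oxygen is low, and acts on endothelial cells, which line the vessels. Its main signalling receptor there is KDR (VEGF receptor 2), while FLT1 (VEGF receptor 1) binds VEGFA tightly, signals weakly and also exists as a soluble form that holds the ligand away from KDR. PECAM1 joins neighbouring endothelial cells to each other and is also found on platelets and some leukocytes, so it is widely used as a marker of the vessel lining. The heart muscle depends on a dense network of capillaries, which keeps growing in the perinatal period.

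Each value was read with a 60-base probe, and the probes decide what the values can say, so those of the growth factor and of receptor 1 are shown here as the deposited files give them, 5′ to 3′. Capitals mark the bases that both probes of a pair share. The VEGFA probes begin at bases 356 and 355 of the transcript record named in the files and share 59 of 60 bases. The untested FLT1 probes share 59 bases as well, while the tested FLT1 probe has no partner. The probes of the soluble receptor, as the files describe it, share 39 bases.
VEGFA, brighter probe: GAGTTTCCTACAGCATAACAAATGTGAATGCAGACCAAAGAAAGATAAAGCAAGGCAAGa
VEGFA, other probe: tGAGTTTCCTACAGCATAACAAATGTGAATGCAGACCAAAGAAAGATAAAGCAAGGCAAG
FLT1, tested probe: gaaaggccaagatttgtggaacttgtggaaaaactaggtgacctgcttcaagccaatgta
FLT1, untested probe 1: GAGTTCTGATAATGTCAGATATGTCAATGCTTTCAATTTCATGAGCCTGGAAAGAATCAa
FLT1, untested probe 2: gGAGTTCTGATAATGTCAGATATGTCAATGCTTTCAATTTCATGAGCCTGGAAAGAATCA
Soluble receptor 1, probe 1: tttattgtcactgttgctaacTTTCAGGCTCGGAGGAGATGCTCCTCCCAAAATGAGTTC
Soluble receptor 1, probe 2: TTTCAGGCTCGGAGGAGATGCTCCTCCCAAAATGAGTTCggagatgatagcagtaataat
The 2 VEGFA probes are therefore close to a repeat of 1 measurement, and so are the 2 untested FLT1 probes. Between probes of different transcript records, over VEGFA, FLT1, PECAM1, KDR and the soluble receptor, no run of more than 8 bases was shared.

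All levels are log2 signals relative to the 75th percentile of the array, so 0 is the level of a fairly bright probe and each unit is a doubling. A probe was called well above background by the scanner software, and was tested if so on at least 6 arrays. That percentile was 219 to 367 on the scanner's scale, 8.77 to 13.6 times the background, and the number of arrays limits the precision. The arrays lay on 2 slides, slide 1 with 3 newborn and 4 fetal arrays and slide 2 with 4 newborn and 2 fetal arrays. On the first principal component newborn 6 stood apart at -8.997, against 10.1 to 35.1 for the other newborn arrays and -29.1 to -20.4 for the fetal arrays. The only cardiomyocyte marker with a probe, of a list of 17, was MB (myoglobin), at 8.62 ± 0.39 in newborn and 8.97 ± 0.18 in fetal ventricles (SD, n = 7 and 6). The endothelial markers CDH5 and VWF have no named probe here, so the vessel lining was seen through 10 tested genes of a list of 35.

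VEGFA, FLT1 and PECAM1 were all lower in newborn than in fetal left ventricle. VEGFA fell 1.60-fold, FLT1 fell 1.77-fold and PECAM1 fell 1.42-fold. Another background correction was normexp with the median background of each array and an offset of 50 added to every signal. There the log2 change of FLT1 was -0.27 (limma adjusted p = 0.0465), against -0.82 here. Of the 6 probes 4 were tested, each well above background on all 13 arrays, and 4 of 4 passed as lower (limma, Benjamini-Hochberg adjustment over 10257 tested probes, threshold 0.05). Among all tested probes 23.1% passed, 12% as higher and 11.1% as lower. The median change of all tested probes was 0.03 on the log2 scale. In pieces of tissue, fewer cells of a type and less RNA per cell cannot be told apart.

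The growth factor comes first. On its brighter probe VEGFA stood at 1.47, 1.52, 1.73, 2.12, 2.19, 2.24 and 2.30 in the 7 newborn ventricles. The 6 fetal ventricles had 2.31, 2.31, 2.62, 2.68, 2.82 and 2.95. The groups did not overlap, although the highest newborn value and the lowest fetal value lay almost together, and the newborn values were the more spread. Non-overlap with newborn lower was seen for 3.47% of all tested probes. The mean was 1.94 ± 0.36 in newborn and 2.61 ± 0.26 in fetal ventricles (SD, n = 7 and 6), a change of -0.67 on the log2 scale (SE 0.17, 95% confidence interval -1.03 to -0.32, limma adjusted p = 0.011).

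The other VEGFA probe, which differs by 1 base at each end, ranged from 1.28 to 2.16 with a median of 1.92 in newborn ventricles. In fetal ventricles it ranged from 2.17 to 2.77 with a median of 2.52. Again 7 of 7 newborn arrays were below every fetal array, with a change of -0.63 (SE 0.15, limma adjusted p = 0.00876). Over the 13 arrays the brighter probe exceeded the other by -0.30 to 0.27, with a median of 0.14.

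On the brighter probe the newborn values of VEGFA on slide 1 lay above those on slide 2. Newborns 1, 2 and 3, on slide 1, had 2.30, 2.19 and 2.24, and newborns 4, 5, 6 and 7, on slide 2, had 1.47, 2.12, 1.52 and 1.73. On the other probe the slides overlapped, with newborn 5 of slide 2 at 1.97 and newborn 2 of slide 1 at 1.92. The next values are of the brighter probe. Within slide 1 the mean was 2.24 in newborn and 2.67 in fetal ventricles, a change of -0.43 (limma adjusted p = 0.182). Within slide 2 it was 1.71 in newborn and 2.50 in fetal ventricles, a change of -0.79 (limma adjusted p = 0.162). With slide as a block the change was -0.58 (limma adjusted p = 0.0142). The direction was thus the same on each slide, and the part of slide in the size of the fall was not tested.

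FLT1, the receptor that binds VEGFA tightly and signals weakly, fell as well. On its tested probe it had -3.37, -3.31, -3.24, -3.24, -3.10, -3.05 and -2.85 in newborn ventricles. Fetal ventricles had -2.70, -2.52, -2.46, -2.24, -2.18 and -1.96. All 7 newborn arrays were below every fetal array, with a gap between the groups. Such non-overlap was seen for 3.47% of all tested probes. The mean was -3.17 ± 0.18 in newborn and -2.34 ± 0.27 in fetal ventricles (SD, n = 7 and 6), a change of -0.82 (SE 0.13, 95% confidence interval -1.09 to -0.55, limma adjusted p = 0.001). Within slide 1 the change was -0.71 (limma adjusted p = 0.0814) and within slide 2 it was -0.90 (limma adjusted p = 0.102).

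**Figure D1:**
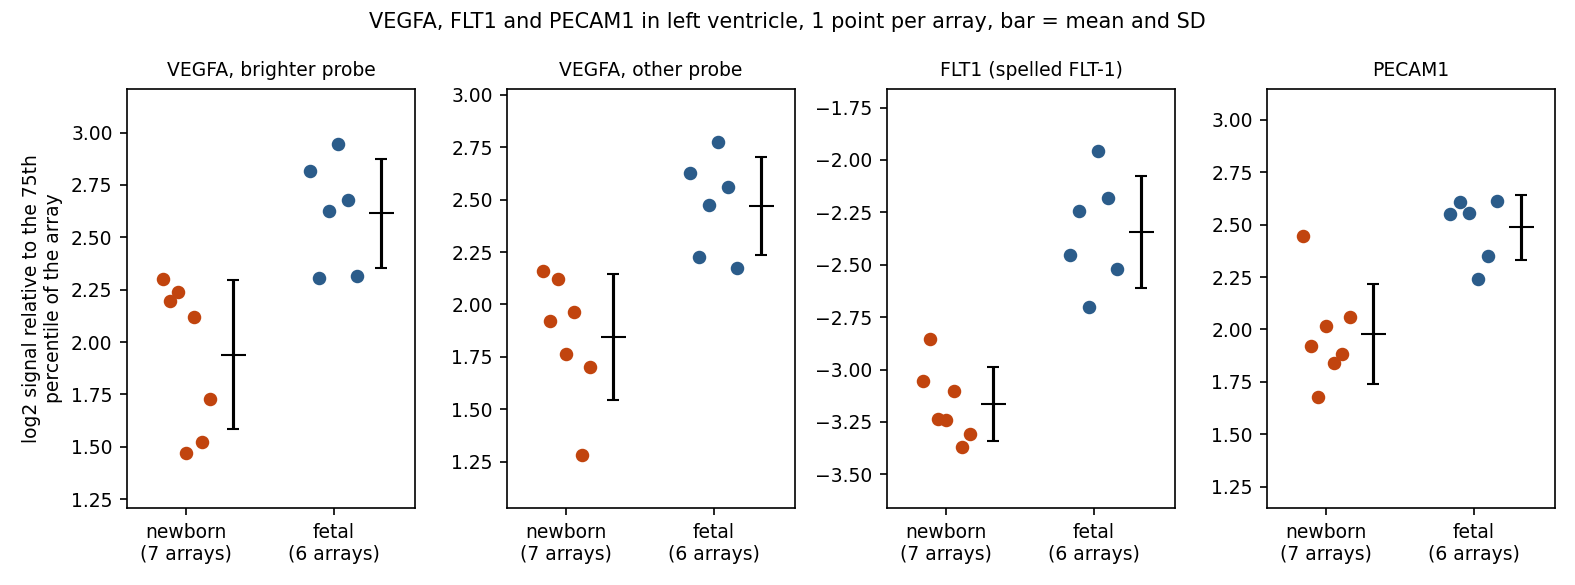
Log2 signal relative to the 75th percentile of the array (vertical axes, each spanning 2 log2 units, levels not comparable between probes) for the 4 tested probes, with newborn arrays in orange to the left and fetal arrays in blue to the right, 1 point per array and bars for the mean and SD. The groups are separate for both VEGFA probes and for FLT1, while for PECAM1 1 newborn array, at 2.44, lies among the fetal ones.

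The probes that carry the plain FLT1 symbol were too dim to test. Untested probe 1 was well above background on 0 of 7 newborn and 2 of 6 fetal arrays, and untested probe 2 on 0 of 7 newborn and 5 of 6 fetal arrays. Probe 1 measured -6.42 to -4.79 with a median of -5.85 in newborn ventricles, and -4.78 to -4.10 with a median of -4.36 in fetal ventricles. Probe 2 measured -6.79 to -5.02 with a median of -5.48 in newborn ventricles, and -5.10 to -3.93 with a median of -4.35 in fetal ventricles. No newborn value of either probe was thus well above background. For probe 1 most fetal values were not well above background either, so no fold is given. For probe 2 each newborn array was set at the higher of the probe's own signal and the lowest signal that counted as well above background on that array. FLT1 was then 1.11-fold lower in newborn ventricles. This is a rough figure and not a strict bound. A signal above that floor is not always called well above background, and the fetal mean includes fetal 1, at -5.10 and not called either.

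A pair of further probes is described in the files as soluble VEGF receptor-1, a shorter product of the FLT1 gene that lacks the membrane anchor. Its probe 1 ranged from -6.03 to -4.28 with a median of -4.86 in newborn ventricles, and from -4.22 to -3.70 with a median of -4.10 in fetal ventricles. Every newborn array was below every fetal array, as for 3.47% of all tested probes, and the change was -1.04 (SE 0.27, limma adjusted p = 0.0131). Only 2 of 7 newborn arrays measured it well above background, against 5 of 6 fetal arrays. The probe thus entered the test mainly through the fetal arrays. Its size, its p and its lack of overlap set fetal signal against mostly unmeasured newborn values, and are not read as a result. Probe 2 was well above background on 0 of 13 arrays and gave no fold.

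**Figure D2:**
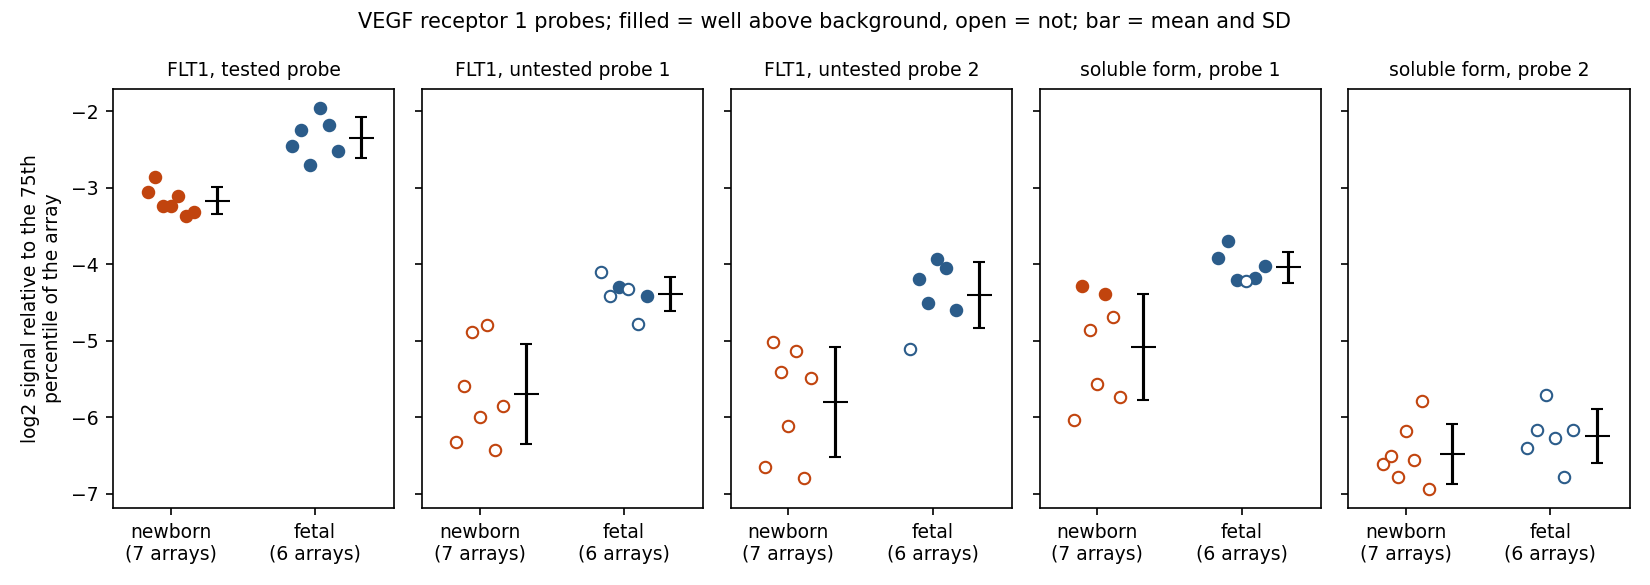
Log2 signal relative to the 75th percentile of the array (vertical axis) for the 3 FLT1 probes and the 2 probes of its soluble form, newborn arrays in orange to the left and fetal arrays in blue to the right, with bars for the mean and SD. Filled points were well above background and open points were not, so only the tested FLT1 probe, from -3.37 to -1.96, was measured on all 13 arrays, and heights are not comparable between probes.

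KDR, the receptor that carries most of the VEGFA signal in endothelium, was read by 4 tested probes. Its 2 brightest probes share a run of 40 bases and are thus not separate measurements. On the brightest, KDR ranged from -1.29 to -0.62 with a median of -1.08 in newborn ventricles, and from -0.75 to -0.23 with a median of -0.54 in fetal ventricles. The groups overlapped, with 5 of 7 newborn arrays below every fetal array, and KDR fell by 0.46 (SE 0.13, limma adjusted p = 0.0233). The other probes gave -0.55 (adjusted p = 0.0201), -0.50 (adjusted p = 0.00841) and -0.33 (adjusted p = 0.0671), so 3 of 4 passed in limma. Within slide 1 the brightest changed by -0.33 and within slide 2 by -0.50.

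The rest of the family was measured poorly. Placental growth factor (PGF), a ligand that binds FLT1 and not KDR, was well above background on at most 1 newborn and 2 fetal arrays, and the co-receptor NRP2 on at most 2 newborn and 0 fetal arrays. VEGFB, VEGFC, VEGFD, FLT4 and NRP1 have no named probe here. Of 5 listed VEGF ligands 1 was tested and fell (VEGFA), and of 5 receptors 2 were tested and both fell (FLT1 and KDR). Among 560 named genes, each by its brightest probe, 24.1% passed, 15.4% as higher and 8.75% as lower.

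PECAM1, the endothelial junction protein, had 1.68, 1.84, 1.88, 1.92, 2.02, 2.06 and 2.44 in newborn ventricles. Fetal ventricles had 2.24, 2.35, 2.55, 2.56, 2.61 and 2.61. Newborn 1, at 2.44, lay above 2 of the fetal arrays, and the other 6 newborn arrays were below every fetal array. The mean was 1.98 ± 0.24 in newborn and 2.49 ± 0.15 in fetal ventricles (SD, n = 7 and 6), a change of -0.51 (SE 0.12, 95% confidence interval -0.77 to -0.25, limma adjusted p = 0.00869). The change was -0.48 within slide 1 (limma adjusted p = 0.198) and -0.53 within slide 2 (limma adjusted p = 0.166), so the slides gave nearly the same size.

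Left without newborn 6, the array that stood apart, the changes were -0.61 for VEGFA (adjusted p = 0.0133), -0.79 for FLT1 (adjusted p = 7.96e-04) and -0.49 for PECAM1 (adjusted p = 0.00983, all limma). When the background of each spot was subtracted by the normexp method, with an offset of 50, only 48 probes passed. VEGFA (-0.59), FLT1 (-0.32) and PECAM1 (-0.46) were lower but did not pass (limma adjusted p = 0.337, 0.919 and 0.337).

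Of 35 endothelial markers 14 have a named probe, 10 were tested, 4 fell and 0 rose, with a median change of -0.27 against 0.10 over all 560 named genes. The list holds FLT1 and PECAM1 themselves, so the count and the median partly repeat their falls. The 4 were FLT1, PECAM1, KDR and EDN1. Of all 560 named genes 8.75% passed as lower and 15.4% as higher. The angiopoietin receptor TEK was well above background on at most 1 newborn and 4 fetal arrays with any of its 3 probes, and was not tested. EDN1 encodes endothelin-1, a vasoconstrictor peptide released by endothelium, and fell by 0.81 (SE 0.26, limma adjusted p = 0.0373). The count was 2 without fetal 1, 2 without fetal 2, and 0 within either slide.

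The other 6 tested endothelial markers did not pass. CAV1, the coat protein of caveolae, changed by -0.46 (95% confidence interval -0.85 to -0.07, limma adjusted p = 0.0843), close to PECAM1 in size. TIE1, an orphan receptor of endothelium, changed by -0.09 (95% confidence interval -0.38 to 0.21), and ROBO4, a guidance receptor that steadies vessels, by 0.10 (95% confidence interval -0.27 to 0.47). NOS3, which makes nitric oxide in endothelium, changed by 0.20 (95% confidence interval -0.16 to 0.55), and the endothelin receptor EDNRB by 0.02 (95% confidence interval -0.20 to 0.24). ICAM1, an adhesion molecule for leukocytes, changed by 0.85 (95% confidence interval 0.11 to 1.59, limma adjusted p = 0.0887), and was well above background on only 3 fetal arrays. On these brightest probes the intervals of ROBO4, NOS3, EDNRB, ICAM1 and TIE1 lie wholly above the -0.51 of PECAM1. The other tested probes of TIE1 (-0.55 to 0.26), ROBO4 (-0.53 to 0.47) and EDNRB (-0.58 to 0.32) have intervals that include it. The value of PECAM1 has an interval of its own, -0.77 to -0.25, which overlaps those of TIE1 and ROBO4 on their brightest probes. Whether these genes differ from PECAM1 in their change was not tested. The summed signal of the 10 markers, on a linear scale, was 5.86 to 8.70 times the 75th percentile in newborn ventricles and 8.65 to 10.2 times in fetal ventricles. PECAM1, the brightest of them, alone gave 3.20 to 5.44 in newborn and 4.73 to 6.12 in fetal ventricles. The sum is therefore largely a second view of PECAM1 and not a separate measure.

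**Figure D3:**
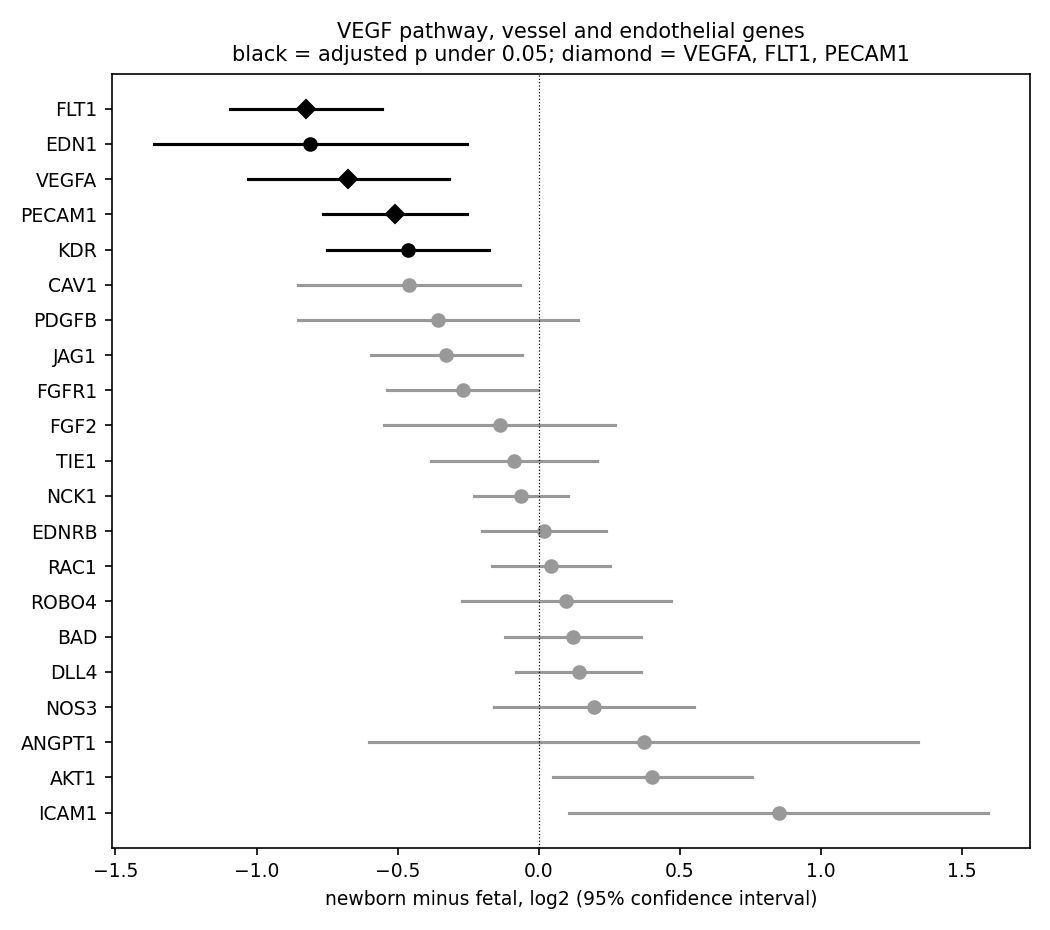
Newborn minus fetal change on the log2 scale (horizontal axis, with 95% confidence intervals) for the tested genes of the VEGF, vessel signalling and endothelial lists, each by its brightest probe, diamonds for VEGFA, FLT1 and PECAM1 and black for an adjusted p under 0.05. The 5 black genes, FLT1, EDN1, VEGFA, PECAM1 and KDR, all lie left of 0, from -0.82 to -0.46, and 0 genes passed to the right.

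Downstream of the receptors, 5 of 39 listed signalling genes were tested and 0 passed. The kinase AKT1, which relays survival signals, changed by 0.40 (limma adjusted p = 0.0903). NOS3, the apoptosis gene BAD, the adaptor NCK1 and the small GTPase RAC1 changed by 0.20, 0.12, -0.06 and 0.04. In the list of angiopoietin, Notch and growth factor genes that shape vessels, 7 of 16 were tested and 0 passed. The Notch ligand JAG1 changed by -0.33 (limma adjusted p = 0.0708) and the Notch ligand DLL4 by 0.14 (adjusted p = 0.336). FGFR1 changed by -0.27, PDGFB by -0.36, FGF2 by -0.14, TIE1 by -0.09 and ANGPT1 by 0.37, with limma adjusted p from 0.131 to 0.671. At an unadjusted p under 0.05, limma gave 1 of the first list (AKT1) and 2 of the second (JAG1 and FGFR1), against 236 of the 560 named genes.

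VEGFA is also a textbook target of the hypoxia-inducible factors, so a list of genes induced by low oxygen, VEGFA among them, was read. Of 21 hypoxia-inducible genes 6 were tested and, by the brightest probe, 4 fell (VEGFA and 3 others) and 0 rose, with a median change of -0.47. Of all 560 named genes 8.75% passed as lower, 15.4% as higher and 24.1% in either direction. The glucose transporter SLC2A1 had the smallest p of them and fell by 1.28 (SE 0.18, limma adjusted p = 5.46e-04), although only 4 newborn arrays measured it well above background. The glucose transporter SLC2A3 fell by 0.48 and hexokinase HK1, which traps glucose in the cell, fell by 0.45 (limma adjusted p = 0.0117 and 0.00815). The glycolytic enzymes LDHA and ALDOA did not pass on their brightest probes, at 0.49 (limma adjusted p = 0.0722) and 0.02 (adjusted p = 0.941). The other LDHA probe passed as higher in newborn ventricles, at 0.51 (limma adjusted p = 0.0488), and the other ALDOA probe changed by 0.09 (adjusted p = 0.682). Of 8 listed hypoxia pathway genes, which include the hypoxia-inducible factors, 4 were tested and 1 fell. It was HIF3A, a factor whose products can restrain the other factors (-0.75, SE 0.22, limma adjusted p = 0.0257). On their brightest probes HIF1A changed by 0.16, EPAS1 by 0.10 and ARNT by -0.45, with limma adjusted p from 0.092 to 0.559. The other EPAS1 probes gave 0.45 (limma adjusted p = 0.0528), 0.18 and 0.08. The other probe of HIF1A gave 0.24 and that of ARNT -0.20, and none of these passed.

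Markers of other cells moved in both directions between the ages. Of 9 macrophage and monocyte markers 3 were tested and 3 rose, FCGR1A by 2.07, FCER1G by 0.76 and CD14 by 0.66. FCGR1A was well above background on 7 newborn arrays and only 2 fetal arrays, so its 2.07 is set against mostly unmeasured fetal values. The summed signal of the 3 markers was 1.04 to 2.18 times the 75th percentile in newborn ventricles and 0.715 to 1.05 times in fetal ventricles. Of 11 other leukocyte markers 2 were tested, and both T-cell chains fell (CD3D -1.63, CD3E -2.07). Newborn arrays measured CD3D well above background on 2 and CD3E on 5 of 7, against 5 and 6 of 6 fetal arrays, so these sizes are uncertain. The sum of both was 0.0422 to 0.157 in newborn and 0.207 to 0.591 in fetal ventricles. Of 11 red cell markers 2 were tested and both fell (HBB -1.53, AHSP -1.73), the second with an uncertain size, since it was well above background on 2 of 7 newborn and 5 of 6 fetal arrays. The sum of both was 25.4 to 68.6 in newborn and 53.7 to 258 in fetal ventricles. Leukocytes also carry PECAM1, and their part in its fall was not tested.

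CNN1, the 1 tested of 10 mural and smooth muscle markers, rose by 1.83, with a signal of 9.81 to 84.01 times the 75th percentile in newborn and 3.63 to 7.17 times in fetal ventricles. Of 12 fibroblast and matrix markers 4 were tested and 1 passed as lower, COL3A1, at -0.37 on its brightest probe (limma adjusted p = 0.047). Its other probes gave -0.28 (adjusted p = 0.143) and -0.19 (adjusted p = 0.374), so 1 of 3 passed in limma. The sum of the 4 markers was 28.8 to 75.01 in newborn and 43.9 to 65.03 in fetal ventricles. MB changed by -0.34 (limma adjusted p = 0.139), with 260 to 555 times the 75th percentile in newborn and 426 to 589 times in fetal ventricles. The 6 platelet markers have no named probe here. The part of these cells in the fall of VEGFA, FLT1 and PECAM1 was not tested.

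Whether the 3 genes fell by unequal amounts was tested with their log2 ratio within each array. FLT1 minus PECAM1 averaged -5.14 ± 0.27 in newborn and -4.83 ± 0.40 in fetal ventricles (SD, n = 7 and 6), a difference of -0.31 (exact permutation test, two-sided, p = 0.118, adjusted p = 0.353). VEGFA minus PECAM1 differed by -0.17 between newborn and fetal ventricles (exact permutation p = 0.469, adjusted p = 0.469), and VEGFA minus FLT1 by 0.15 (exact permutation p = 0.353, adjusted p = 0.469). The adjustment is over these 3 pairs, and the smallest p the design allows is 5.83e-04. In none of the 3 was a difference in the size of the fall detected. With the mean of each gene's probes, which brings in the dim FLT1 probes, VEGFA minus FLT1 differed by 0.53 (exact permutation, adjusted p = 0.021).

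Within each age the 3 genes were compared array by array, so that the difference between the ages does not enter. The 6 correlations were adjusted together and 0 passed. Over 7 newborn arrays VEGFA and FLT1 had r = 0.69 (exact permutation p = 0.0851, adjusted p = 0.206) and rho = 0.71 (exact p = 0.0881, adjusted p = 0.264). Over 6 fetal arrays they had r = 0.39 (exact permutation p = 0.443, adjusted p = 0.665) and rho = 0.49 (exact p = 0.356, adjusted p = 0.533). With normexp and the median background of each array the newborn r was -0.012, so its sign depends on the background correction. In newborn ventricles this pair also moved with the slide, since slide 1 had the higher means of both genes, at 2.24 against 1.71 for VEGFA and -3.05 against -3.25 for FLT1.

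With PECAM1 both other genes had negative correlations over the fetal arrays, which did not pass. VEGFA and PECAM1 had r = -0.76 (exact permutation p = 0.103, adjusted p = 0.206) and rho = -0.89 (exact p = 0.0333, adjusted p = 0.2) over 6 fetal arrays. FLT1 and PECAM1 had r = -0.77 (exact permutation p = 0.0764, adjusted p = 0.206) and rho = -0.71 (exact p = 0.136, adjusted p = 0.272) there. Over 7 newborn arrays VEGFA and PECAM1 had r = 0.08 (exact permutation p = 0.891, adjusted p = 0.891) and rho = 0 (exact p = 1), and FLT1 and PECAM1 had r = 0.20 (exact permutation p = 0.651, adjusted p = 0.781) and rho = 0.07 (exact p = 0.906). Fetal 4 combined the highest VEGFA (2.95) and the highest FLT1 (-1.96) of all arrays with the lowest PECAM1 of its group (2.24). The 2 fetal females, fetal 2 and fetal 6, had the lowest VEGFA (both 2.31) and the highest PECAM1 (both 2.61) of the fetal arrays. The part of sex in these fetal correlations was not tested.

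Leaving out the 2 arrays farthest from the median of the first gene, r over the newborn arrays was 0.57 for VEGFA with FLT1, 0.04 for VEGFA with PECAM1 and -0.30 for FLT1 with PECAM1. Over the fetal arrays it was 0.72, -0.58 and -0.63 in the same order. For VEGFA with either gene the fetal arrays left out were the 2 females, fetal 2 and fetal 6. The slides hold 2 to 4 arrays of a group, too few for a correlation within a slide.

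**Figure D4:**
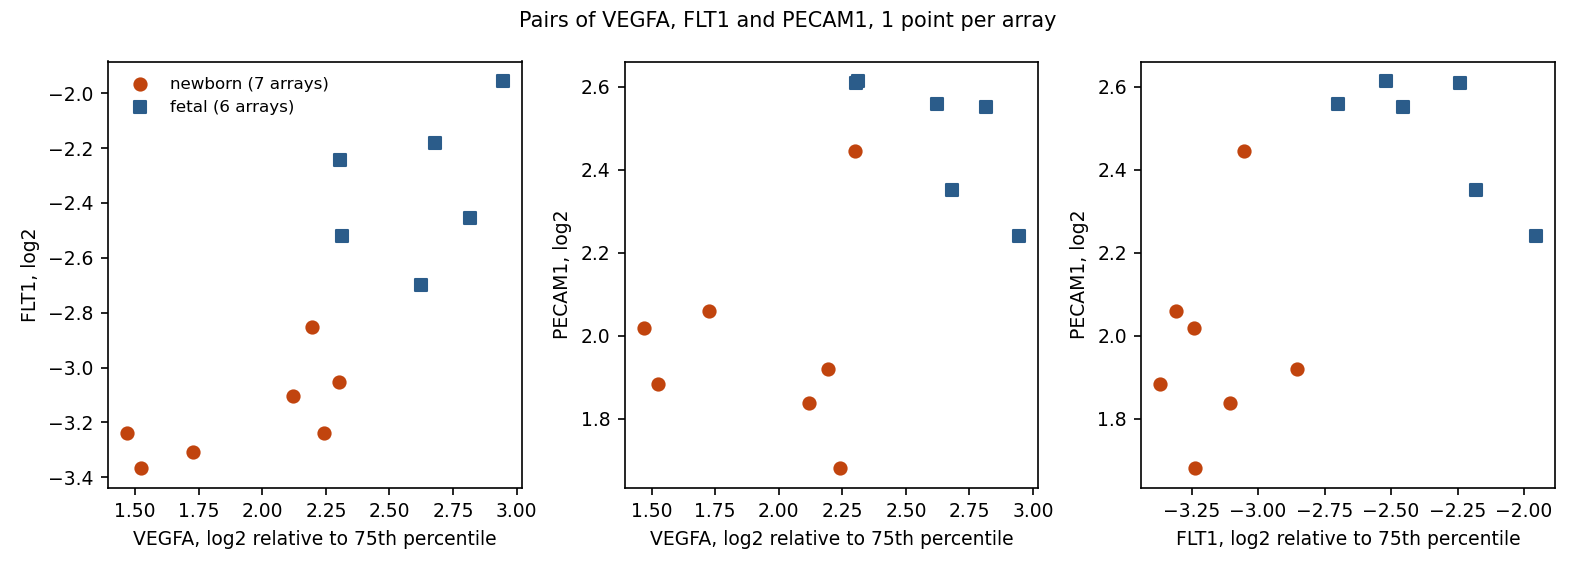
Pairs of VEGFA, FLT1 and PECAM1, 1 point per array, newborn arrays as orange circles and fetal arrays as blue squares, with log2 signal relative to the 75th percentile of the array on both axes. The 7 newborn arrays run upward for VEGFA and FLT1 (r = 0.69, but -0.012 with normexp, the median background of each array and an offset of 50). The 6 fetal arrays run downward in both plots with PECAM1 (r = -0.76 and -0.77), but 0 of the 6 correlations passed.

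Both sexes showed lower values in newborn ventricles. VEGFA was at 1.90 in newborn and 2.31 in fetal females, a change of -0.41, and at 1.99 in newborn and 2.77 in fetal males, a change of -0.78. The difference between the sexes in that change was 0.37 (SE 0.33, 95% confidence interval -0.34 to 1.09, limma adjusted p = 0.987). On the other VEGFA probe the changes were -0.30 in females and -0.83 in males. Their difference was 0.53 (95% confidence interval -0.09 to 1.15, limma adjusted p = 0.979). FLT1 changed by -0.80 in females and -0.83 in males, and the difference of 0.03 had a 95% confidence interval of -0.58 to 0.64. PECAM1 changed by -0.52 in females and -0.60 in males, and the difference of 0.08 had a 95% confidence interval of -0.43 to 0.58. Over all 10257 tested probes 0% passed this comparison in limma, with 507 probes at an unadjusted p under 0.05, and with 2 fetal females the intervals stay wide.

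To describe which genes varied with each of the 3 from animal to animal, deviations from the group means were correlated over the 13 arrays for 544 named genes. For VEGFA the 5 highest were CBX5 (r = 0.78), CPT1A (r = 0.75), JUND (r = 0.72), PCNA (r = 0.69) and CCN1 (r = 0.67). CPT1A, which admits fatty acids to mitochondria, and PCNA, the DNA replication clamp, were both higher in newborn ventricles, by 1.83 and 1.17 (limma adjusted p = 0.00291 and 0.00295), so they followed VEGFA within the ages and moved opposite to it between them. For FLT1 the 5 were SS18L2 (r = 0.65), TXNDC17 (r = 0.65), TLR3 (r = 0.61), IL13RA1 (r = 0.58) and SSTR5 (r = 0.57), and 0 of them passed between the ages. For PECAM1 the 5 were the matrix proteoglycan BGN (r = 0.80), the laminin-related NTN4 (r = 0.76), the intermediate filament VIM (r = 0.76), CD1D (r = 0.75) and IGFBP5 (r = 0.70), of which IGFBP5, which binds insulin-like growth factors, fell by 1.57 (limma adjusted p = 2.44e-04). These correlations share arrays, slides and scaling and were picked as the highest of 544, so they carry no test.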

How the data were processed

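Total RNA of frozen left ventricle was hybridised to Agilent 1-colour arrays, 1 per animal, per the labels' protocols. The deposited scanner files hold intensity values from Agilent Feature Extraction 10.1.1.1, per the submitters' processing notes and file headers. Per the file headers, background subtraction and spatial detrending had already been applied to the processed signal. The authors' series matrix, deposited as log2 values judging from their range, has no stated normalization and served as an alternative; FLT1's tested probe had no value in it. The aligner and genome build of the probes are not given in the sources used here, so no coordinates are printed.

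Here each array was scaled to its own 75th percentile of that signal and put on a log2 scale, leaving out control and outlier spots. Probes well above background on at least 6 arrays (10257 of 15008) were fitted with limma 3.58.1 in R 4.3.3 (age only, two-sided, threshold 0.05). Of all probes 1382 had a single gene name, 21 of them through the description in the files, and 22 with conflicting names were left out. A gene is given by its brightest tested probe. All tested members of the VEGF, vessel and endothelial lists are named. Of other lists the member with the smallest p is named, and further ones because the count was 5 or fewer. The members and lists were chosen with earlier results of these data known. Ratios and correlations used exact permutation. The labels number the animals, and 4 numbers, of unstated meaning, recur within a group over 9 animals. Replicate numbers were not taken as pairs, since they name different animals and deviations of same-numbered arrays correlated at -0.07 to 0.05. The test was checked on simulated data. Those data had independent noise and no effect of slide or of shared animal number, so the check does not cover these. The values were read with the R package data.table (version 1.17.8) and drawn with matplotlib 3.10.9 and pandas 2.3.3 under Python 3.11.15.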

Additional observations from a re-analysis of the deposited data

How the results depend on the processing

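VEGFA, FLT1 and PECAM1 were lower in newborn ventricles under every alternative run, except that the series matrix held no value for FLT1's tested probe. Where measured, they passed in all but the normexp correction with each spot's background and the fits within 1 slide. The spot background gave -0.59 for VEGFA, -0.32 for FLT1, -0.46 for PECAM1 and 48 probes passing. Slide 1 alone gave -0.43, -0.71 and -0.48 with 356 probes passing, and slide 2 alone -0.79, -0.90 and -0.53 with 23 passing; these fits hold fewer arrays. FLT1 kept its call but shrank to -0.27 (limma adjusted p = 0.0465) with normexp and the median background of each array. Both normexp runs added an offset of 50 to every signal. The tested FLT1 probe read only 0.0969 to 0.258 times a 75th percentile of 219 to 367. The parts of the offset and of the background in the smaller change were not tested. Leaving out 1 array at a time gave -0.74 to -0.60 for VEGFA, -0.90 to -0.75 for FLT1, -0.59 to -0.46 for PECAM1, with 1726 to 3116 probes passing, and all 3 passed each time. A replicate block on the numbers, which are not pairs, moved the count of passing probes to 1326, with -0.64 for VEGFA, -0.80 for FLT1 and -0.52 for PECAM1, all passing, and 0 of 6 numbers had arrays that correlated best with each other.

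None of the ratios and correlations passed as reported, and 5 of these 9 results turned sign or began to pass under an alternative. With the array's median background and the offset of 50, VEGFA minus FLT1 turned to -0.36 and FLT1 minus PECAM1 to 0.22. The newborn correlation of VEGFA with FLT1 turned to -0.012. VEGFA minus PECAM1 was 0.047 within slide 1. The mean of each gene's probes gave 0.53 for VEGFA minus FLT1, which passed, and -0.56 for the newborn correlation of FLT1 with PECAM1, which was -0.30 without 2 arrays. Leaving out 1 array gave -0.40 to -0.19 for FLT1 minus PECAM1, -0.26 to -0.05 for VEGFA minus PECAM1 and 0.07 to 0.22 for VEGFA minus FLT1. Among alternatives added after seeing the data, the count of endothelial markers that fell was 2 in the series matrix, which lacked FLT1's tested probe. It was 2 with animal number as a random block and 0 with the spot background. The hypoxia-inducible count was 0 with the spot background, 1 within slide 1 and 0 within slide 2.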
